A study of Mus musculus with 6 samples.

Results

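Incretin receptor and cAMP signalling genes were followed on 6 mouse expression arrays of MIN6, an insulin-secreting line from a mouse beta cell tumour. The 10 genes were Glp1r, Gipr, Ffar1, Adcy5, Adcy6, Adcy8, Adcy9, Prkaca, Rapgef4 and Creb1, and their members on the array were taken as every probe set annotated to only 1 of these symbols. This gave 20 probe sets of 8 genes, out of 45101 probe sets in all. Ffar1, the receptor for long-chain fatty acids, and Rapgef4, which encodes the cAMP sensor Epac2, had no probe set that named them alone in the annotation used and were not analysed here. All cells were MIN6 electroporated with 100 pmol of siRNA. On 3 arrays the siRNA was a control, and on the other 3 its target was Tardbp, the gene of the RNA-binding protein TDP-43. The labels give no time after electroporation, and they do not state whether replicates came from separate cultures, so the p-values measure the spread between these samples, which may be technical.

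In beta cells the gut hormones GLP-1 and GIP act on receptors that couple to the stimulatory G protein Gs. Gs activates adenylyl cyclases, which make cAMP, and cAMP acts through protein kinase A and through Epac2 to raise glucose-dependent insulin release. Protein kinase A also phosphorylates CREB, which binds cAMP-response elements in gene promoters. The fatty acid receptor encoded by Ffar1 instead signals mainly through Gq, phospholipase C and calcium.

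The siRNA lowered its target: on the brightest Tardbp probe set, 1423723_s_at, the signal after TDP-43 siRNA was 0.556 of control (log2 difference -0.85, SE 0.09, n = 3 per group, limma adjusted p = 0.00216), so the treated cells kept part of the transcript. All 5 probe sets of Tardbp were lower, at 0.377 to 0.556 of control. In RNA from a whole culture, fewer cells expressing a gene and less RNA per cell cannot be told apart. Of 12 beta cell markers 10 had a probe set that was tested, with mean control signals from 1785 to 21716, and 0 of these 10 passed the test (1 at an unadjusted p below 0.05). Over the 5 acinar, duct, stromal, endothelial and immune markers that passed the filter on low signals, mean control signals were 43.7 to 137 and 0 passed (1 at an unadjusted p below 0.05). Of 8 markers of other islet cells 3 were tested and 0 passed (1 at an unadjusted p below 0.05), and Gcg, the glucagon gene, named after its values were seen, had a mean control signal of 9264. Over all 12619 genes tested, 0.626% passed on their brightest probe set and 12.2% had an unadjusted p below 0.05. A count of 0 in such short lists lies near that background and does not show that the markers were unchanged. Arrays correlated between 0.982 and 0.988 across the log2 values of tested probe sets. Leaving out control replicate 3 raised the number of probe sets past the threshold from 158 to 325, so values without single arrays are given where they matter.

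No incretin receptor or cAMP signalling gene differed between the groups past the threshold. Of the 15 member probe sets that passed the filter, which belong to 7 genes, 0 passed limma with Benjamini-Hochberg adjustment over all 27022 probe sets tested at a threshold of 0.05, and 0 had an unadjusted p below 0.05. Over all probe sets tested, 158 passed, or 0.585%, so that a count of 0 among 15 lies near the background. By limma 3053 of the 27022 had an unadjusted p below 0.05. At that share too, 0 among 15 does not show that the members were unchanged. The groups overlapped on all 15, and they did not overlap on 17.2% of all probe sets. With only 15 probe sets of 7 genes, this does not set the members apart from the rest. Log2 differences of TDP-43 siRNA minus control siRNA ran from -0.14 to 0.22, with 8 above and 7 below 0. Their median was 0.06, against 0.01 over all probe sets. The median size of the difference, without its sign, was 0.09 against 0.11 over all probe sets. Standard errors of the members ran from 0.06 to 0.19, so the size of change that could have been called differed between them.

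**Figure D1:**
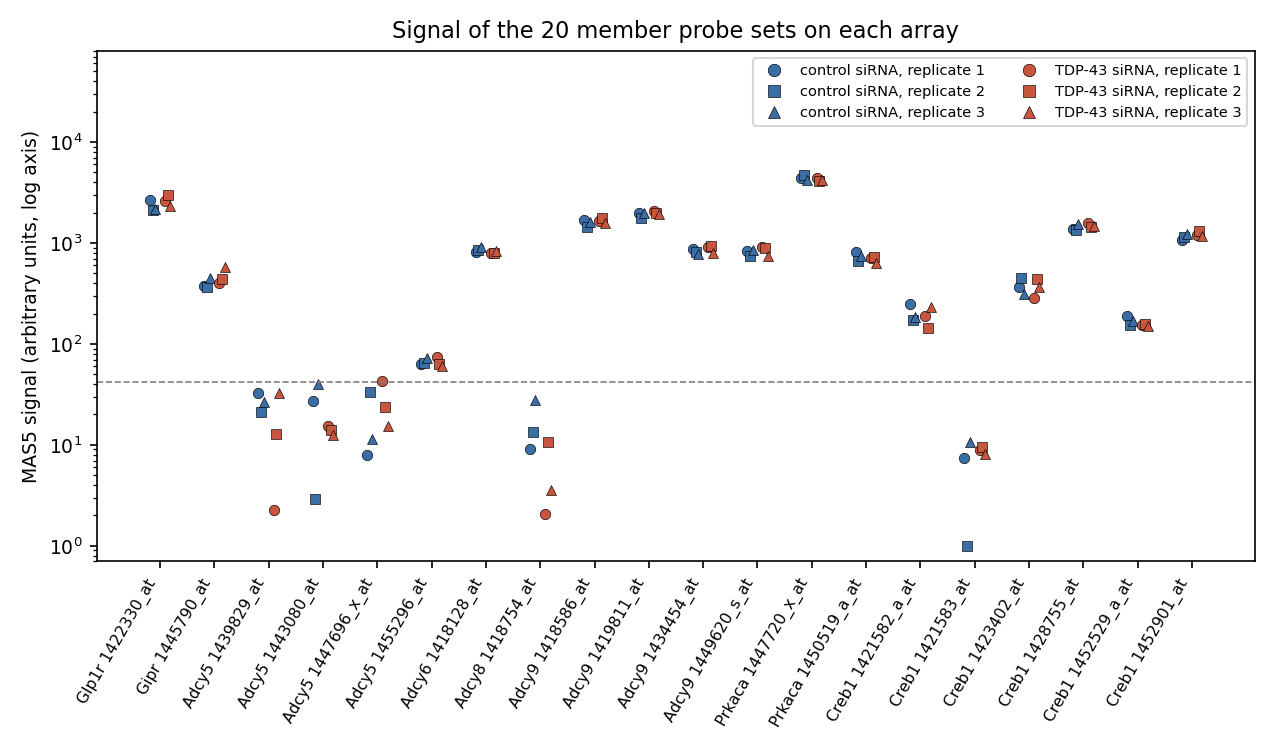
MAS5 signal (arbitrary units, log axis) of each of the 20 member probe sets on each of the 6 arrays, control siRNA in blue and TDP-43 siRNA in red, with a symbol for each replicate number. The dashed line is the filter at a mean signal of 41.5; 5 probe sets lie below it on average, and on the 15 above it the blue and red points overlap.

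Glp1r, the receptor for GLP-1, was read by 1 probe set, 1422330_at. Its signals were 2636, 2122 and 2163 on the control arrays and 2619, 2979 and 2297 after TDP-43 siRNA. Control replicate 1 read as high as TDP-43 siRNA replicate 1, and the highest value was TDP-43 siRNA replicate 2. The group means were 2307 ± 286 (SD, n = 3) and 2632 ± 341 (SD, n = 3), a log2 difference of 0.19 (SE 0.11, limma adjusted p = 0.563). The 95% confidence interval ran from 0.962-fold to 1.35-fold of control, so a fall of more than a few percent and a rise above 1.35-fold both lie outside it. With each array left out in turn the difference stayed between 0.095 and 0.29, and the lowest adjusted p was 0.445.

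Gipr, the receptor for GIP, was read by 1445790_at at 377, 363 and 453 in control cells and at 402, 436 and 571 after TDP-43 siRNA. TDP-43 siRNA replicate 3 was the highest, and the other two lay below control replicate 3. The means were 398 ± 48.4 (SD, n = 3) and 470 ± 89.5 (SD, n = 3), and the log2 difference of 0.22 was the highest of the members (SE 0.14, limma adjusted p = 0.605). Its interval, from 0.936-fold to 1.46-fold, is wider than that of Glp1r. With each array left out in turn the difference lay between 0.077 (without TDP-43 siRNA replicate 3) and 0.32, and the lowest adjusted p was 0.384. Signals of different probe sets depend on their probes as well as on RNA, so the brighter reading of Glp1r says nothing of which receptor was the more abundant.

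The genes most like each receptor were picked by the Pearson correlation of log2 values over the 6 arrays, as a description. For Glp1r they were Rex1bd (r = 0.981), Nars2, a mitochondrial asparaginyl-tRNA synthetase (0.973), and Dlg1, a synaptic and epithelial scaffold (0.973). For Gipr they were Cactin (0.998), Dnaja3, a mitochondrial co-chaperone (0.992), and Mtfmt, which formylates the mitochondrial initiator tRNA (0.989). They were picked as the highest of 11953 other genes, of which 66 had r above 0.9 with Glp1r and 263 with Gipr. All these values rest on the same 6 libraries, so they describe the arrays and test no link between the genes.

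Adenylyl cyclases, which turn ATP into cAMP, were next. Adcy6, a cyclase inhibited by calcium, was read by 1418128_at at 819, 854 and 909 in control cells and at 798, 797 and 833 after TDP-43 siRNA. Both lowest readings were TDP-43 siRNA arrays, and only replicate 3 of that group reached into the control range. The log2 difference was -0.09 (SE 0.08, limma adjusted p = 0.739), and the interval reached from 0.833-fold to 1.06-fold.

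Adcy9, a cyclase that responds little to forskolin, had 4 probe sets, all tested. On the brightest, 1419811_at, control arrays read 1974, 1784 and 2000 and TDP-43 siRNA arrays 2078, 1978 and 1936. The 4 log2 differences were 0.08 on 1418586_at, 0.06 on 1419811_at, 0.09 on 1434454_at and 0.06 on 1449620_s_at. They thus lay close together and above 0, and none passed (limma adjusted p from 0.756 to 0.888). On the brightest the interval was the narrowest of the cyclases, from 0.933-fold to 1.16-fold.

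Adcy5, also inhibited by calcium and linked by human genetics to glucose levels, was dim. Of its 4 probe sets only 1455296_at passed the filter, at 62.8, 65.3 and 72.7 in control cells and 74.7, 63.4 and 60.3 after TDP-43 siRNA. The groups lay within the same range, with a log2 difference of -0.02 (SE 0.19, limma adjusted p = 0.987) and an interval from 0.736-fold to 1.33-fold. The other three, 1439829_at, 1443080_at and 1447696_x_at, lay between 2.3 and 43.2 on single arrays. Adcy8, a cyclase stimulated by calcium and calmodulin, had only 1418754_at, at 9.0, 13.3 and 27.9 in control cells and 2.1, 10.7 and 3.6 after TDP-43 siRNA. Such values are under the filter of 41.5, and no difference was tested for them.

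Prkaca encodes the catalytic alpha subunit of protein kinase A. Its bright probe set 1447720_x_at read 4361, 4657 and 4206 in control cells and 4419, 4070 and 4197 after TDP-43 siRNA. The ranges overlapped, with control replicate 2 the highest and TDP-43 siRNA replicate 2 the lowest. The log2 difference of -0.06 (SE 0.06, limma adjusted p = 0.777) had the smallest error of all members, and its interval ran from 0.872-fold to 1.06-fold. The dimmer 1450519_a_at, at 736 ± 73.1 (SD, n = 3) in control and 684 ± 46.1 (SD, n = 3) in TDP-43 siRNA arrays, was at -0.10 (limma adjusted p = 0.764).

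Creb1, the cAMP-responsive transcription factor itself, had 6 probe sets, of which 5 were tested. The 2 brightest were higher on average: 1428755_at read 1365, 1349 and 1556 in control cells and 1590, 1441 and 1487 after TDP-43 siRNA, a log2 difference of 0.08 (SE 0.08, limma adjusted p = 0.760). The second, 1452901_at, was at 0.10 (SE 0.08, limma adjusted p = 0.728). The 3 dimmer probe sets were below 0, with 1452529_a_at at -0.14, 1421582_a_at at -0.10 and 1423402_at at -0.05, and their errors were larger, from 0.13 to 0.19. With the mean of the tested probe sets the sign for the gene turned to -0.02. The sixth, 1421583_at, read 10.7 or less on every array.

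Whether probe sets of 1 gene changed unequally was tested on their difference to the brightest one. Over the 8 such pairs of Adcy9, Prkaca and Creb1 the difference in change lay between -0.22 and 0.04. By limma 0 of the 8 passed (adjusted p from 0.825 to 0.9997 over 10814 pairs of all genes), and 0 had an unadjusted p below 0.05. Over all genes 0 pairs passed (0.0%), and 777 had an unadjusted p below 0.05. Since no pair of any gene passed, a count of 0 among these 8 does not show that the probe sets changed equally. The confidence intervals of the Creb1 pairs all include 0. For 1452529_a_at against 1428755_at the difference in change was -0.22, with an interval from -0.51 to 0.07. The test therefore does not decide whether the split of the Creb1 probe sets by sign is more than error.

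**Figure D2:**
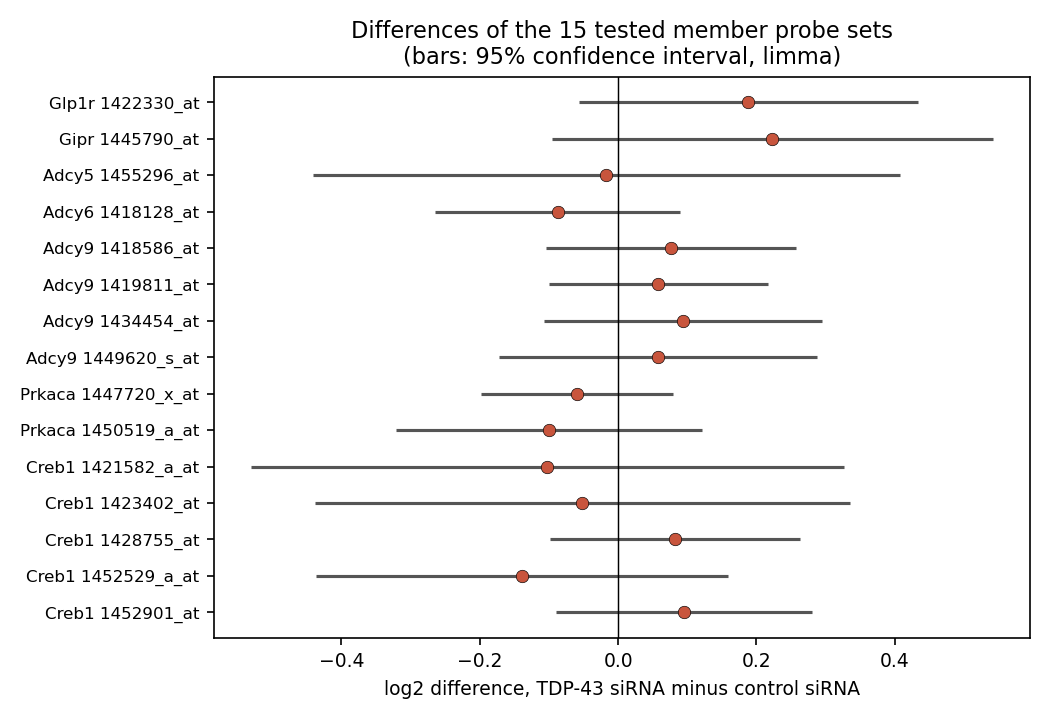
Log2 difference, TDP-43 siRNA minus control siRNA, of the 15 tested member probe sets (points) with the 95% confidence interval of the limma fit (bars), 3 arrays per group. All 15 intervals cross 0, and 13 of them lie within 0.5 on either side; the exceptions are Gipr, whose interval reaches 0.54, and Creb1 1421582_a_at, which reaches -0.53.

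Across arrays the 7 tested genes moved little as a group. Their mean log2 deviation from each gene's own average was lowest on control replicate 2, at -0.08, and highest on TDP-43 siRNA replicate 1, at 0.05. The remaining arrays lay between -0.03 and 0.03, with control replicate 3 at 0.03 above TDP-43 siRNA replicate 3 at 0.02.

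The other genes of the pathway were read from 10 lists, by the brightest probe set of each gene. Of 171 genes 129 were tested, 0 rose, 1 fell and 128 did not pass, while 0.626% of all 12619 genes passed on their brightest probe set. At an unadjusted p below 0.05 there were 19 of the 129, against 12.2% of all genes. The groups did not overlap for 12 genes that were higher and 15 that were lower, and for 18.3% of all genes. The median log2 difference of the 129 was 0.01.

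**Figure D3:**
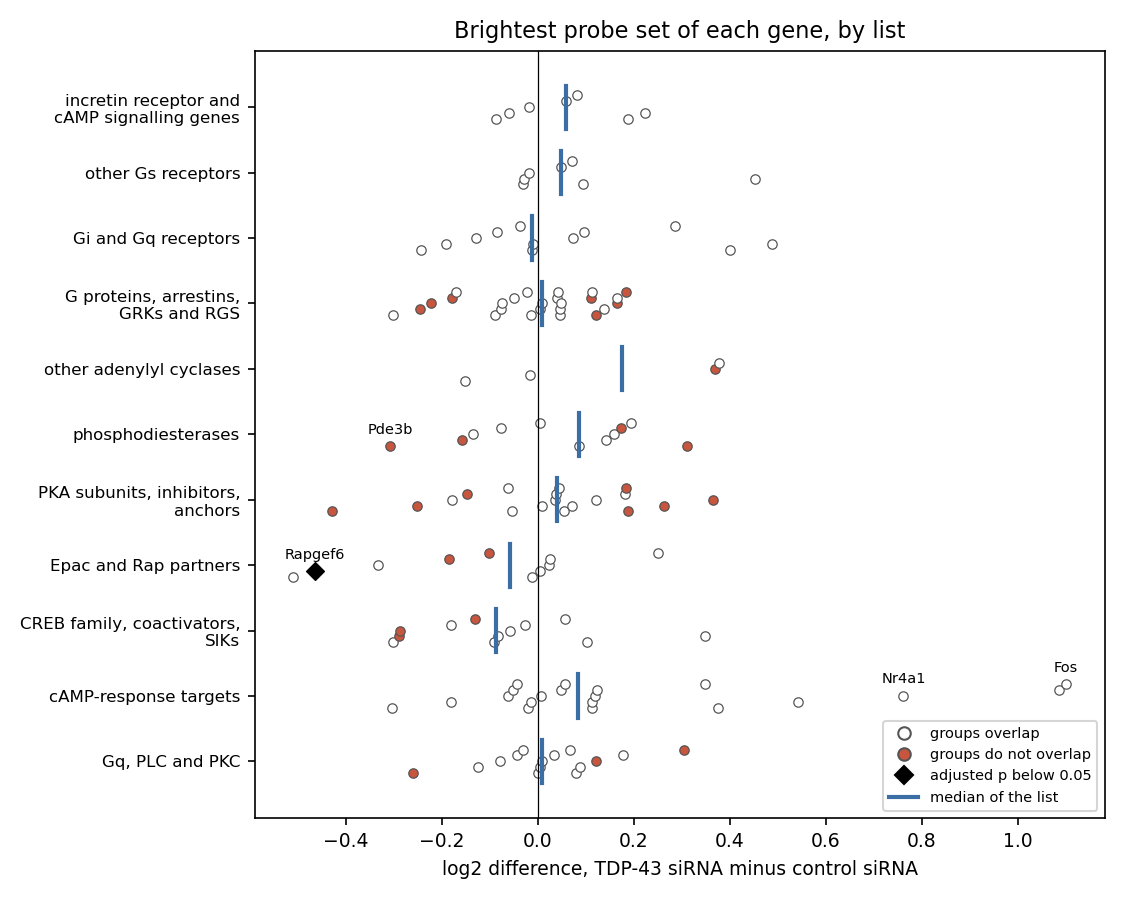
Log2 difference, TDP-43 siRNA minus control siRNA, of the brightest probe set of each tested gene (points), in a row for the 7 member genes and in 10 rows for the pathway lists; some genes stand in more than 1 list. Filled points mark genes whose groups do not overlap, the diamond marks the 1 gene with adjusted p below 0.05 (Rapgef6, -0.46), and bars mark list medians, which lie between -0.09 and 0.18.

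The other receptors on the lists did not pass. Among 7 other Gs-coupled receptors tested, of 20 listed, 0 passed by limma (0 at an unadjusted p below 0.05, median 0.05). The secretin receptor Sctr was at 0.45 (limma adjusted p = 0.531) and the constitutively active Gpr3 at 0.09. Among 12 Gi- and Gq-coupled and short- or long-chain fatty acid receptors 0 passed (1 at an unadjusted p below 0.05, median -0.01). The cannabinoid receptor Cnr1, which lowers cAMP through Gi, read 886, 868 and 1116 in control cells and 1269, 1142 and 1082 after TDP-43 siRNA (log2 difference 0.29, SE 0.11, limma adjusted p = 0.355). Only control replicate 3 reached the TDP-43 siRNA range. The dimmer Cnr1 probe set 1419425_at was at -0.0051 with overlapping groups, and the mean of both was at 0.14 (limma adjusted p = 0.762). Ffar2, a receptor for short-chain fatty acids, was at -0.19 on 1425215_at and at -0.25 on 1425216_at (limma adjusted p = 0.463 and 0.464).

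Of 25 G protein, arrestin, GRK and RGS genes 0 passed (2 at an unadjusted p below 0.05, median 0.01). Gnas, which encodes the Gs alpha subunit and was singled out for its role after its values were seen, read 15144, 15186 and 16163 in control cells and 14379, 15730 and 15974 after TDP-43 siRNA on 1450186_s_at. That is a log2 difference of -0.01 (SE 0.05, limma adjusted p = 0.952), with an interval from 0.911-fold to 1.08-fold. The 4 dimmer tested probe sets of Gnas ran from -0.41 to 0.50, and the groups overlapped on each. Gng4, a G protein gamma subunit, lay lower on all 3 of its tested probe sets without overlap of the groups, at -0.25, -0.35 and -0.27 (limma adjusted p = 0.183, 0.0532 and 0.265). Gnai1, the inhibitory alpha subunit that restrains cyclases, also lay lower without overlap on all 3, at -0.22, -0.33 and -0.24 (limma adjusted p = 0.437, 0.321 and 0.548). Neither gene passed on any probe set.

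Among the other cyclases 0 of 4 tested passed (1 at an unadjusted p below 0.05, median 0.18). Adcy1, a cyclase stimulated by calcium, read 139, 163 and 127 in control cells and 181, 183 and 197 after TDP-43 siRNA. The groups did not overlap, and the log2 difference was 0.37 (SE 0.14, limma adjusted p = 0.346). Adcy3 was at 0.38 on its brightest probe set (SE 0.24, limma adjusted p = 0.603), where it was at 0.12 without control replicate 3, and at 0.10 on the other (SE 0.58).

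Phosphodiesterases break cAMP down, and 0 of 11 tested passed (1 at an unadjusted p below 0.05, median 0.08). The lowest was Pde3b, which degrades cAMP in beta cells and fat cells and restrains insulin release. It read 5127, 4712 and 4951 in control cells and 4065, 4101 and 3775 after TDP-43 siRNA. All 3 TDP-43 siRNA arrays lay below all 3 control arrays, at 0.808-fold with an interval from 0.736-fold to 0.887-fold. The log2 difference of -0.31 (SE 0.06) just missed the threshold (limma adjusted p = 0.0654). Among the 19 alternative settings it was past the threshold with 1, a filter on the lowest 60% of probe sets (limma adjusted p = 0.0497). The adjusted p was 0.151 with no filter, 0.294 without the intensity trend and 0.0763 to 0.292 with single arrays left out. Without the trend 0 of all probe sets passed. Pde4b, a cAMP-specific phosphodiesterase, was at -0.16, -0.23 and -0.33 on its 3 tested probe sets (limma adjusted p from 0.502 to 0.550).

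Of 18 protein kinase A subunits, inhibitors and anchors 0 passed (6 at an unadjusted p below 0.05, median 0.04). Prkar2a, the regulatory subunit RII alpha that holds the kinase inactive and binds anchoring proteins, lay higher on its 3 tested probe sets. The signals were 2151, 2251 and 2145 in control cells and 2746, 2508 and 2617 after TDP-43 siRNA on the brightest, with no overlap. The 3 log2 differences were 0.26, 0.34 and 0.39 (limma adjusted p = 0.135, 0.0798 and 0.359). Akap13, an anchoring protein, was at -0.25 on its brightest probe set (SE 0.06, limma adjusted p = 0.155), with the groups apart. The groups overlapped on the dimmer 1443923_at, 1440392_at and 1430185_at, at -0.22, -0.43 and -0.07 (limma adjusted p = 0.656, 0.386 and 0.945).

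Rapgef6 was the 1 pathway gene that passed. It encodes an exchange factor for the small GTPase Rap, the class of protein that Epac2 also activates, and stands in the list of Epac and Rap partners, of which 10 were tested and 2 had an unadjusted p below 0.05 (median -0.06). On 1434509_at it read 840, 778 and 857 in control cells and 620, 583 and 580 after TDP-43 siRNA. It fell to 0.725-fold (log2 difference -0.46, SE 0.08, limma adjusted p = 0.0462). The call was lost when any single array was left out, with limma adjusted p from 0.0664 (without control replicate 3) to 0.206 (without control replicate 1). It was also lost with no filter (0.0768) and without the intensity trend (0.148), a setting in which 0 of all probe sets passed. Its 3 dimmer tested probe sets were at -0.13, -0.65 and 0.04, and with the mean of probe sets the gene was at -0.30 (limma adjusted p = 0.375).

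Of 12 CREB relatives, coactivators and salt-inducible kinases 0 passed (2 at an unadjusted p below 0.05), and 9 of the 12 lay below 0 with a median of -0.09. Creb3l2, a membrane-bound relative of CREB, read 1256, 1241 and 1143 in control cells and 1018, 963 and 992 after TDP-43 siRNA (log2 difference -0.29, SE 0.08, limma adjusted p = 0.162). The groups did not overlap there, but did on the dimmer 1437396_at, at -0.15. Sik3, a kinase that keeps CREB coactivators out of the nucleus, was at -0.29 on its brightest probe set (limma adjusted p = 0.241) but at 0.15 and 0.05 on the other two. In the Gq, phospholipase C and protein kinase C list, the arm that the fatty acid receptor uses, 0 of 15 passed (1 at an unadjusted p below 0.05, median 0.01). Prkcd, a calcium-independent protein kinase C, was at 0.31 (limma adjusted p = 0.403) and Gna11, a Gq-family alpha subunit, at 0.12 (limma adjusted p = 0.450), each with its 3 TDP-43 siRNA arrays above the control arrays on the brightest probe set. On the other Gna11 probe set, 1434254_at, the groups overlapped.

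Genes that CREB is known to switch on form the last list. Of 20 cAMP-response targets tested 0 passed by limma (3 at an unadjusted p below 0.05, median 0.08), and the groups overlapped for all 20. Dusp1, a phosphatase of MAP kinases, read 1458, 1544 and 1332 in control cells and 2022, 2185 and 1489 after TDP-43 siRNA (log2 difference 0.38, SE 0.13, limma adjusted p = 0.301). Nr4a1, an orphan nuclear receptor induced by cAMP and calcium, read 1110, 1148 and 726 in control cells and 1954, 2447 and 958 after TDP-43 siRNA (log2 difference 0.76, SE 0.30, limma adjusted p = 0.366). In each gene 2 of the 3 TDP-43 siRNA arrays stood above every control array and the array numbered 3 did not. Both arrays numbered 3 were the lowest of their group in these genes, and TDP-43 siRNA replicate 3 read above control replicate 3.

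Fos, Egr1 and Junb, early genes named after their values were seen, had the same outline. Fos read 1474, 1903 and 634 in control cells and 4658, 4863 and 785 after TDP-43 siRNA. Egr1 read 2751, 2919 and 517 in control cells and 7429, 9142 and 590 after TDP-43 siRNA. Junb read 210, 235 and 212 against 416, 403 and 202. For Fos and Egr1 both arrays numbered 3 were the lowest of their group by far, and TDP-43 siRNA replicate 3 read above control replicate 3. For Junb TDP-43 siRNA replicate 3 read below control replicate 3, which itself lay between the other control arrays.

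With all 6 arrays the log2 differences were 1.10 for Fos (SE 0.63, limma adjusted p = 0.553), 1.09 for Egr1 (SE 0.96, 0.730) and 0.54 for Junb (SE 0.23, 0.424). Leaving out both arrays numbered 3 leaves 2 arrays a group, and this choice was made with the values of these genes known. It is therefore given as a description, with no test. The log2 differences were then 1.50 for Fos, 1.54 for Egr1, 0.95 for Nr4a1, 0.85 for Junb and 0.48 for Dusp1. All 5 are also induced by growth factors and by stress, so their levels are not specific to cAMP. What sets the arrays numbered 3 apart was not tested. Pcsk1, which encodes the proinsulin-cleaving convertase and is a cAMP-responsive gene of beta cells, did not share the outline, at 4393, 4312 and 3441 in control cells and 4155, 4655 and 4357 after TDP-43 siRNA (log2 difference 0.12, limma adjusted p = 0.677). It was named after its values were seen.

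**Figure D4:**
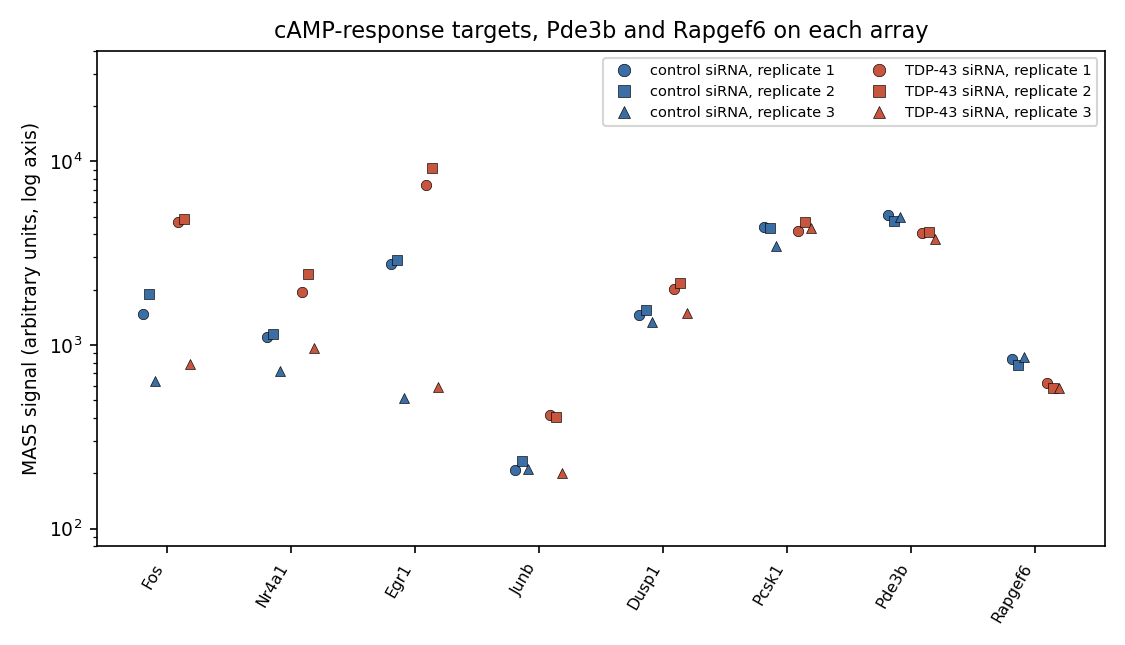
MAS5 signal (arbitrary units, log axis) on each of the 6 arrays for 6 cAMP-response targets and for Pde3b and Rapgef6, control siRNA in blue, TDP-43 siRNA in red, with a symbol for each replicate number. For Fos, Nr4a1, Egr1, Junb and Dusp1 TDP-43 siRNA replicates 1 and 2 stand above all control arrays and replicate 3 does not, whereas for Pde3b and Rapgef6 all 3 lie below the control arrays.

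The promoters of these genes are shown because CREB acts on them through a short DNA motif. The full cAMP-response element is TGACGTCA, which reads the same on both strands, and its shorter core is TGACG, read as CGTCA on the other strand. The full element holds the core once on each strand. The sequences are the 250 bases before the annotated start, from RefSeq (GRCm38.p6), written 5′ to 3′ on the gene's strand in lower case, with every match to the core or full element in capitals. The 4 targets comprise Fos (chr12:85473640-85473889, + strand), Nr4a1 (chr15:101266596-101266845, + strand), Dusp1 (chr17:26508473-26508722, - strand) and Pcsk1 (chr13:75089607-75089856, + strand). Of the members, Glp1r (chr17:30901617-30901866, + strand) is shown as a window with no match and Adcy9 (chr16:4420499-4420748, - strand) as one with a match.
Fos: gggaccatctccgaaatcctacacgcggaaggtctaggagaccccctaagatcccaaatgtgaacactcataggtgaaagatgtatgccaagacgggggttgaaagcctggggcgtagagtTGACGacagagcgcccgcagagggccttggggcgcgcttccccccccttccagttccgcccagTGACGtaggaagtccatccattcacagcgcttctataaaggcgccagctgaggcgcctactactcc
Nr4a1: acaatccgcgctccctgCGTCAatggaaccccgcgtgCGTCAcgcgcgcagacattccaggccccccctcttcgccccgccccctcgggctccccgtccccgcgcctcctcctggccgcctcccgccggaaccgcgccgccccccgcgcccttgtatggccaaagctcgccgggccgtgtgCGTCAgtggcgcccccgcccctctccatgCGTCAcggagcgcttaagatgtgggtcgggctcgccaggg
Dusp1: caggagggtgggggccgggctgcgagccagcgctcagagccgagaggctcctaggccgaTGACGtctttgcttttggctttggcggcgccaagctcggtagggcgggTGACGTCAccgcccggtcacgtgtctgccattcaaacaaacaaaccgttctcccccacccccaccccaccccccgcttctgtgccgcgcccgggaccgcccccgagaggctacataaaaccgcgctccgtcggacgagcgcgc
Pcsk1: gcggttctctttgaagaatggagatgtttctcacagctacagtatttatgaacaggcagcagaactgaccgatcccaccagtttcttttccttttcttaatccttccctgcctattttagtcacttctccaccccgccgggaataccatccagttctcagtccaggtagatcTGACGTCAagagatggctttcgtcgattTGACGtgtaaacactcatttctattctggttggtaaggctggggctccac
Glp1r: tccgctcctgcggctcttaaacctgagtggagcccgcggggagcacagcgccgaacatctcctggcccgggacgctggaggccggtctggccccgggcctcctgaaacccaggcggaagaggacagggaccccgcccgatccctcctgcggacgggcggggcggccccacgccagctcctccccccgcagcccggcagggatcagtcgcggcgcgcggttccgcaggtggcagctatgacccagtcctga
Adcy9: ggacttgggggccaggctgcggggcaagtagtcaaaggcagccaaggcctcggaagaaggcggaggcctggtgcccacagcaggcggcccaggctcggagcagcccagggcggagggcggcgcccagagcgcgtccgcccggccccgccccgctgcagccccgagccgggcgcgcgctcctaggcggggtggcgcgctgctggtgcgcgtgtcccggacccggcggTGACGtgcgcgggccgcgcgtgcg
Dusp1 and Pcsk1 carry the full element, whose first base lies 143 bases before the start in Dusp1 and 78 in Pcsk1, and each carries 1 further core. Fos carries the core 129 and 66 bases before the start, and Nr4a1 carries it 4 times. In Adcy9 the core begins 24 bases before the start.

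Windows were found for 16 of the 21 cAMP-response targets and for 7 of the 10 members, Ffar1 and Rapgef4 included. The core stood in 13 of the 17 windows of the targets (76.5%), in 2 of the 8 of the members (25.0%, Adcy9 and 1 of 2 windows of Prkaca) and in 17.8% of all 32851 windows of the same length. The full element stood in 2 of 17 (11.8%), in 0 of 8 and in 1.55%. The targets were listed as genes that CREB is known to switch on, so a higher share among them is no independent result. A match describes the letters and is not a measured binding site. Dusp1 and Pcsk1 hold the full element, whereas Fos and Nr4a1 hold only the core.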

How the data were processed

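Total RNA of MIN6 cells (100 ng per sample) was amplified and labelled by in vitro transcription and read on Affymetrix mouse arrays, 3 per group, per the labels' protocols. The authors computed MAS5 signals, per the submitters' processing notes, and deposited them as a linear intensity for each of 45101 probe sets. The trimmed mean of every array was 500.003. Genome build and scaling target are not given in the sources used here.

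Gene names came from GEO's platform annotation (34945 with 1 gene, 932 several, 9160 none listed, 64 controls), with symbols updated through a RefSeq table (34741 matched). After adding 12 and taking log2, controls and probe sets in the dimmest 40% by mean signal (under 41.5) were left out. The difference between groups was fitted by limma 3.58.1 (R 4.3.3), using lmFit and then eBayes with an intensity trend (two-sided, Benjamini-Hochberg over 27022 probe sets, threshold 0.05). Adding 12 makes the differences of dim probe sets smaller than those of their RNA. Intervals are 95%. Pairs of probe sets were fitted as differences, without the trend. Detection calls were not used.

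The text names every member, Tardbp and, in each of 10 lists, genes past the threshold or else the 2 with the smallest p, and the 3 genes most like Glp1r and Gipr. Other genes are marked as named after their values were seen. Members, lists and tests were chosen with earlier results of these data known. The steps were tested on simulated data. Differences between 3' and 5' control probe sets (log2) differed between groups by 0.02 for Gapdh (exact permutation p = 0.4, two-sided) and -0.03 for b-actin (p = 0.2, exact), where 0.1 is the smallest p that 3 against 3 allow. Alternatives were other pseudocounts (1 and 42), filters (none, 60%), quantile normalization, median centring, no trend, robust variance, array weights, 1 value per gene, the replicate block and arrays left out.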

Additional observations from a re-analysis of the deposited data

How the results depend on the processing

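The count of 0 member probe sets past the threshold held under all 19 alternative settings. Without the intensity trend 0 of all probe sets passed, so the count was fixed there. With 0.585% of all probe sets past the threshold as reported, an unchanged 0 among 15 says little. Of 268 values of member probe sets under alternatives, 12 changed sign and 0 passed (lowest limma adjusted p = 0.384). The sign changes were those of small differences: Adcy5 1455296_at was at 0.0033 with array weights, at 0.089 without both arrays numbered 3 and between -0.095 and 0.037 with each array left out. Adcy9 1449620_s_at ranged from -0.0070 to 0.15, Creb1 1421582_a_at from -0.26 to 0.068 and Creb1 1423402_at from -0.20 to 0.11 with single arrays left out, and Creb1 1428755_at was at -0.023 with the mean of probe sets. Gpr3 ranged from -0.079 to 0.24 and was at -0.13 without both arrays numbered 3.

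For differences in change against the brightest probe set, single arrays left out gave -0.027 to 0.046 for Adcy9 1418586_at, -0.030 to 0.083 for 1434454_at, -0.042 to 0.069 for 1449620_s_at, -0.069 to 0.076 for Creb1 1452901_at, -0.32 to 0.063 for 1423402_at and -0.16 to 0.034 for Prkaca 1450519_a_at. Without both arrays numbered 3 they were 0.079 for 1449620_s_at and 0.051 for 1450519_a_at.

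All probe sets past the threshold, 158 as reported, numbered 69 with no filter, 0 without the intensity trend, 94 with the brightest probe set per gene, 61 with the mean of probe sets, 241 without both arrays numbered 3 and 56 to 325 with single arrays left out. Pathway genes past the threshold, 1 as reported, numbered 0 with no filter, 0 without the trend, 0 with the mean of probe sets and 2 with a 60% filter. With single arrays left out they numbered 0 to 1 (Junb without TDP-43 siRNA replicate 3, limma adjusted p = 0.0278). Without both arrays numbered 3 the count was 5 (Fos, Egr1, Nr4a1, Junb and Dusp1). That setting was chosen with the values of these 5 genes known, so their calls there are no test and no independent support. Why the counts differ was not tested, except that fewer values were tested with 1 value per gene.

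Same-numbered arrays of the groups correlated at -0.112, -0.134 and 0.245 in their deviations from group means, so the numbers were not taken to pair the samples. With the replicate block 156 probe sets passed, 0 of them members; the 1 pathway gene was Nr4a1 (limma adjusted p = 0.0413), in place of Rapgef6 (0.0768). With 3 arrays a group, the number of arrays limits the precision.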
